A study of Mus musculus with 6 samples.

Results

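The genes described here encode the nuclear subunits of respiratory complex III, complex IV and the ATP synthase, the last 3 proton-handling machines of the mitochondrial inner membrane, together with factors that assemble complex IV. They were taken from a read count table of 35976 genes by name alone: symbols that start with Uqcr, with Atp5, or with Cox and a digit, leaving out 2 that are marked as pseudogenes. This gave 52 genes, of which 8 are subunits of complex III, 18 are subunits or partners of complex IV, 9 are complex IV assembly factors, 15 are subunits of the ATP synthase, and 2 (Atp5s and Atp5sl) only carry its name. The mitochondrially encoded COX1 to COX3 are not among them. Of the 52 genes, 50 passed the filter on low counts. Cox8c had 0 counts in all 6 libraries and Cox7b2 had at most 5 in any; both are isoforms of other tissues.

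RNA came from hearts of wild-type (WT) mice in 2 groups of 3 libraries; the labels do not name the part of the heart. The edited group received AAV-MYL2-TadA8e-Sauri-U6-Camk2d sgRNA7: an adeno-associated virus with an adenine base editor (the deaminase TadA8e and a Cas9 called Sauri) under the heart-muscle promoter MYL2, and a U6-driven guide aimed at the splice donor of Camk2d intron 7. The control group had the treatment "none", so virus, editor and edit were absent from it together, and their effects cannot be told apart. The labels give no age, sex, dose or interval, and do not state that replicates came from separate animals; p-values then reflect the spread among these libraries, which may be technical.

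Electrons that leave complex I and complex II pass through ubiquinol to complex III, through cytochrome c to complex IV, and end on oxygen. The proton gradient that this builds turns the rotor of the ATP synthase, and a beating heart draws nearly all of its ATP from it. Complex IV is unusual in that some of its small nuclear subunits come in pairs: Cox6a2, Cox7a1 and Cox8b are the heart and skeletal muscle isoforms, while Cox6a1, Cox7a2 and Cox8a are made in most tissues.

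Total counts per library ranged from 17062412 to 23097998. Camk2d, the target, was at 223 ± 3.5 CPM in controls and 144 ± 17.7 CPM in edited hearts (mean ± SD, n = 3; CPM is counts per 1e6 after TMM scaling), and edgeR's quasi-likelihood test gave it an adjusted p of 4.76e-04. Of 14879 tested genes, 4.74% passed an adjusted p of 0.05 as lower in edited hearts and 4.93% as higher. Levels of atrial muscle markers differed between libraries of the same group. The 6 atrial muscle genes of the marker list (Myl7, Nppa, Myl4, Sln, Bmp10 and Dkk3) summed to 61.9 and 43.8 CPM in controls 1 and 3, against 1992 CPM in control 2 and 1272 to 2824 CPM in the edited libraries; 0 of the 5 tested passed in edgeR, and none was at 0 in all libraries. They did not move as one: Bmp10, which is made in the right atrium, was at 102 CPM in control 2 and at 0 to 0.11 CPM in the other 5 libraries, while Myl7, Nppa, Myl4, Sln and Dkk3 were high in control 2 and in all edited libraries. The 9 genes of the ventricular muscle list summed to 77456 to 80515 CPM in controls and 65235 to 69589 CPM in edited hearts, and 5 of 9 passed as lower. The lists for fibroblasts (6166 to 7780 CPM in controls, 7292 to 9301 in edited; 1 of 7 higher), mesothelium (27.3 to 28.2 and 30.9 to 53.1 CPM; 5 of 7 higher, 1 lower) and dividing cells (208 to 256 and 293 to 314 CPM; 5 of 6 higher) also differed, while the endothelial list lay at 2001 to 2108 and 1947 to 2067 CPM with 0 of 7 passing in edgeR. In bulk tissue, fewer heart muscle cells and less of an RNA per cell cannot be told apart. The part of tissue makeup in the differences below was not tested.

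The promoters of the paired complex IV subunits are shown because the muscle to ubiquitous ratio of 2 of the 3 pairs was lower in every edited heart than in every control. Sequences are from RefSeq (GRCm38.p6), which held promoters for 38 of the 52 genes, Cox6a2 not among them. Each is the 250 bases before the gene's start, read 5′ to 3′ on the gene's strand. Capitals mark matches, on either strand, to any of 7 short motifs searched: GCGC and TGCGC with any 1 base between them (the factor NRF1), CCGGAAG (the ETS family, which includes GABPA), AAGATGG (YY1), CAAGGTCA (estrogen-related receptors), CTA and TAG with any 4 bases between them (MEF2), CAGCTG (a muscle E-box) and CCAAT.
Cox6a1: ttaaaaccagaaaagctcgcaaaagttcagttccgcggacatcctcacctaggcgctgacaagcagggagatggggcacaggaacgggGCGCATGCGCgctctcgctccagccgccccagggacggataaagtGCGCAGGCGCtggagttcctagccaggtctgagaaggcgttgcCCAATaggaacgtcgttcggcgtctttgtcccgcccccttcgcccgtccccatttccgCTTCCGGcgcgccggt
Cox7a1: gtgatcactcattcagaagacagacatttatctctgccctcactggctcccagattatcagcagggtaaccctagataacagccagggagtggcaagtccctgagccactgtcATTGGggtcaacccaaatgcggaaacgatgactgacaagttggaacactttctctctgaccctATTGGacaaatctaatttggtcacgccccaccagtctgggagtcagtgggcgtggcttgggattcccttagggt
Cox7a2: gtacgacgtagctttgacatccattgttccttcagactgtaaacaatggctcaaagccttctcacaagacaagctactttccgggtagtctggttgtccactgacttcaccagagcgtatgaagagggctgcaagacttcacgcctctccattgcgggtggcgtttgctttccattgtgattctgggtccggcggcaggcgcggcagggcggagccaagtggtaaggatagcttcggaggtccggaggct
Cox8a: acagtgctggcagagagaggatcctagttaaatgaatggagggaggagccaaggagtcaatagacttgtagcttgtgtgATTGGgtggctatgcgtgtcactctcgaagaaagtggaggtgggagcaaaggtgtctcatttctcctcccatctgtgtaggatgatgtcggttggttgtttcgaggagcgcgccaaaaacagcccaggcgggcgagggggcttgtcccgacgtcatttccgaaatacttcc
Cox8b: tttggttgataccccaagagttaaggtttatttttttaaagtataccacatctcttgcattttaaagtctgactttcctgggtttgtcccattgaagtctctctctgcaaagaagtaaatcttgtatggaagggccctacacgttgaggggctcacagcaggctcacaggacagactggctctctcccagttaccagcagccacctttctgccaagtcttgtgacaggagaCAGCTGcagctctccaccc
Cox6a1 lies at chr5:115348959-115349208 on the minus strand, Cox7a1 at chr7:30183921-30184170 on the plus strand, Cox7a2 at chr9:79759854-79760103, Cox8a at chr19:7217617-7217866 and Cox8b at chr7:140900447-140900696, all 3 on the minus strand. These are the coordinates of the printed bases.

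The window of the ubiquitous Cox6a1 held 2 NRF1 matches, 162 to 153 and 117 to 108 bases before the start, an ETS match at 16 to 10 and a CCAAT at 74 to 70. The muscle gene Cox8b held a CAGCTG at 19 to 14 bases before the start, and no other match. Cox7a1 held 2 CCAAT matches, Cox8a 1, and Cox7a2 none of the 7 motifs. Among all members with a promoter, 5 of 38 (13.2%) held the NRF1 motif, against 4.23% of 27025 genes, and 11 of 38 (28.9%) held the ETS motif, against 7.83%. CCAAT was in 50% of members and 37.5% of all genes, CAAGGTCA in 5.26% and 1.51%, AAGATGG in 5.26% and 5.18%, CAGCTG in 5.26% and 14.7%, and the MEF2 motif in 2.63% and 3.70%. NRF1 and GABPA are known activators of respiratory chain genes. A match describes letters and not a bound site.

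Across the 50 tested genes the shift was small and mostly downward. In edited hearts 20 of 50 fell (against 4.74% of all tested genes), 0 rose, and 30 did not pass. The median log2 change, edited over control, was -0.19, against 0.00 over all tested genes, and 46 of 50 estimates were below 0. Estimates ran from -0.34 for Cox7a1 to 0.44 for Cox6b2. The 3 edited libraries lay below all 3 controls for 31 of 50 genes (14.7% of all tested genes) and above them for 1 (14.6%). For the count of 0 rises, 1 gene, Cox6b2, had an unadjusted p below 0.05 in edgeR, and neither DESeq2 (4.15% of all genes called higher) nor limma voom (8.02%) called a rise. No gene passed a test for a change above 1.5-fold (glmTreat; 0 of 50 also at an unadjusted p below 0.05, and 0.0941% of all genes passed as lower).

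**Figure D1:**
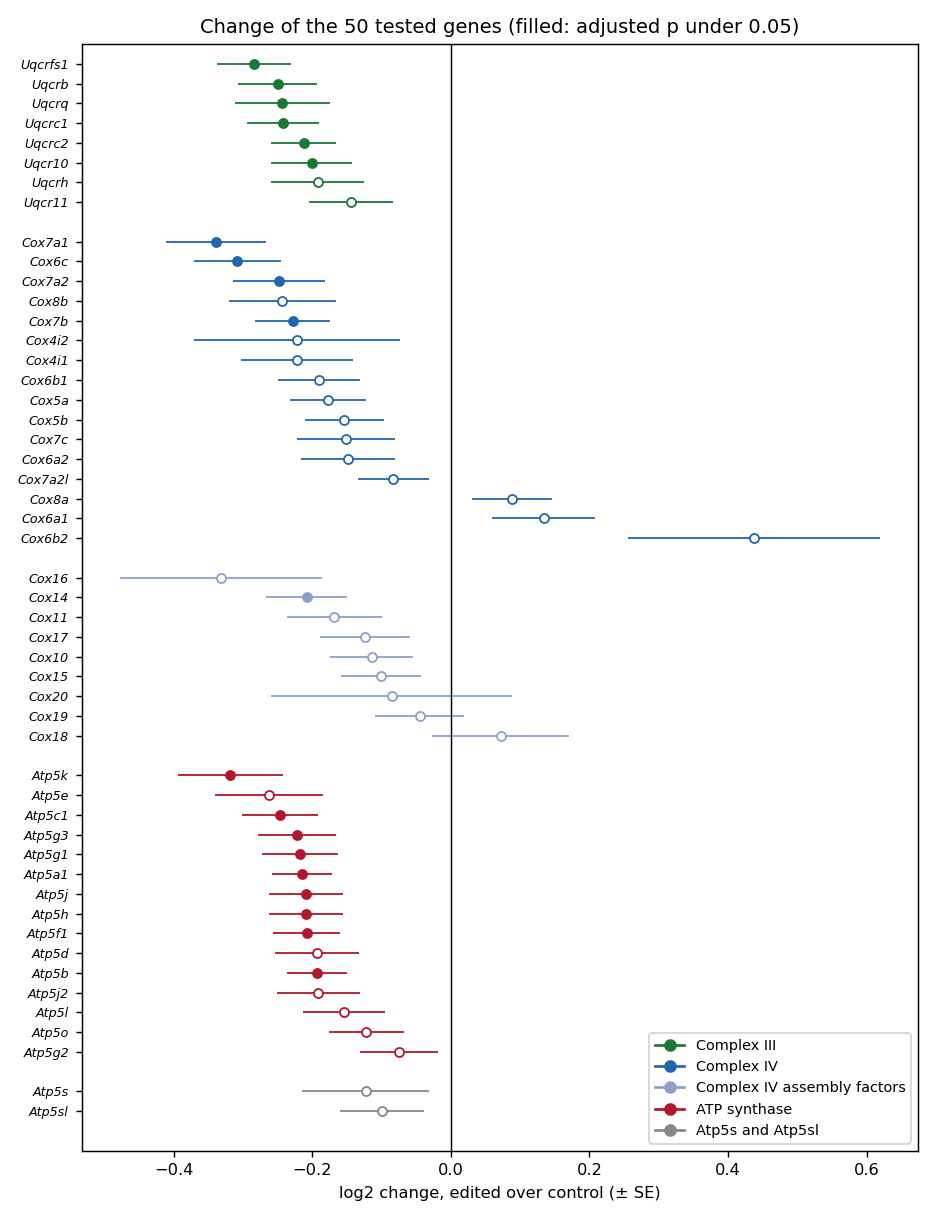
Log2 change, edited over control, of the 50 tested genes by complex; bars are ± 1 SE from edgeR and filled points passed an adjusted p of 0.05 over all tested genes. Most points lie between -0.34 and -0.08, while Cox8a, Cox6a1 and Cox6b2 of complex IV and the assembly factor Cox18 lie to the right of 0.

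The number of genes that fell was 2 without control 1 (Uqcrfs1 and Atp5a1; 2.39% of all genes called lower), 0 without control 3 (26 at an unadjusted p below 0.05; 1.31%) and 7 without edited 3 (2.15%), but 32 without control 2 (3.91%). The median log2 change in these fits was -0.16, -0.19, -0.19 and -0.23. With log2 Myl7 as a covariate it was 0 (11 at an unadjusted p below 0.05; 0.551%), and with controls 1 and 3 left out, 0 (8 unadjusted; 0.335%). In the last fit control 2 is the only control and is assumed to vary like the 3 edited libraries, so that few genes could pass and its estimates are given rather than its calls. In these 2 fits 46 and 43 of 50 estimates were below 0, with medians of -0.12 and -0.10. Myl7 itself was higher in every edited library than in every control, so that as a covariate it overlaps with group. Such overlap makes it harder for genes to pass, and what the lost calls came from was not tested.

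Under other choices of scaling, filter and test the count was 20 with DESeq2's size factors (4.80% of all genes called lower), 13 with upper-quartile scaling (3.57%), 28 with no filter (3.78%) and 19 with a filter at 1 CPM (4.89%). DESeq2's test called 27 lower (4.38%) and limma voom 31 (7.33%). It was 15 without edited 1 (5.04%), 23 without edited 2 (4.82%), 20 without the mitochondrially encoded and haemoglobin genes (4.74%) and 17 with the length trend removed (5.26%). With the length trend removed the median log2 change of the members was -0.15. The tested members are short, with a median of 768 exon bases against 3488 over all tested genes. At an adjusted p of 0.01, 3 genes were called, Uqcrfs1, Cox6c and Atp5a1 (1.69%).

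Control 1 was the highest of the 6 libraries for 35 of 50 genes, and control 2 was the lowest control for 42. The median deviation of the 50 genes from their own mean log2 CPM was 0.16 in control 1, -0.01 in control 2 and 0.12 in control 3, and -0.11, -0.07 and -0.08 in edited 1, 2 and 3. Control 2 thus lay between the other controls and the edited hearts. Its Myl7 level was 332 CPM, beside 6.88 and 0.21 CPM in controls 1 and 3 and 371 to 914 CPM in edited hearts.

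**Figure D2:**
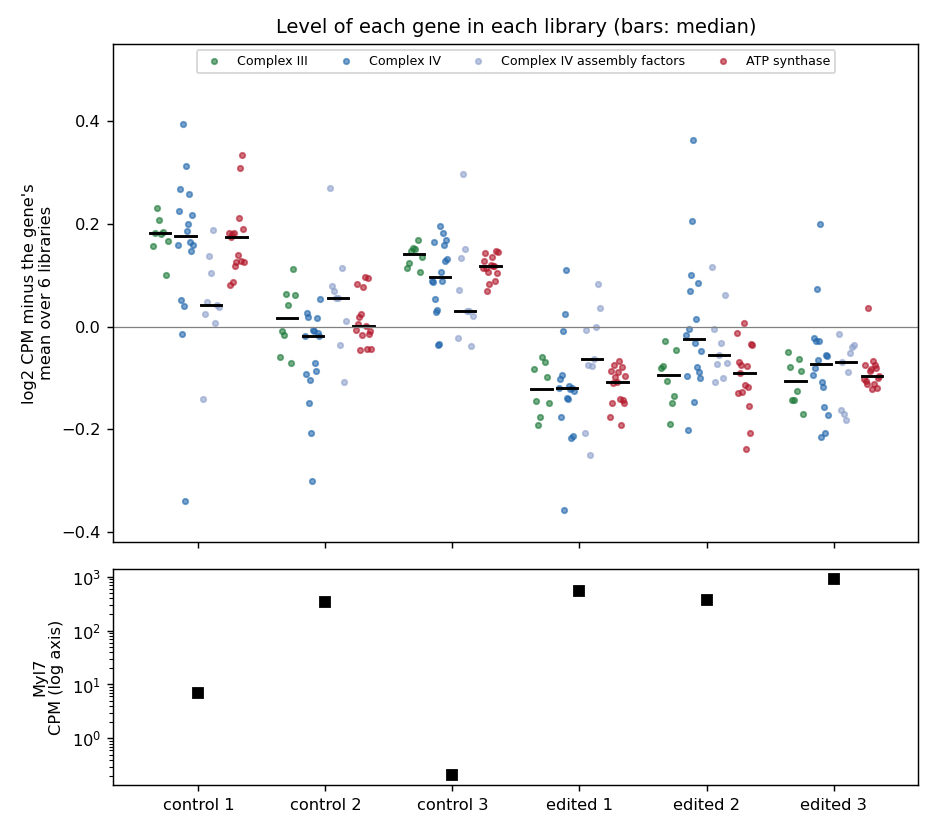
Top, log2 CPM of each tested gene of the complexes and the assembly factors in each library minus that gene's mean over the 6 libraries, with black bars at the median of each complex; bottom, CPM of the atrial light chain gene Myl7 on a log axis. Controls 1 and 3 are highest for the complexes and hold under 7 CPM of Myl7, and control 2 lies between them and the edited hearts.

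Complex III passes electrons from ubiquinol to cytochrome c. All 8 of its Uqcr genes had negative estimates (median log2 -0.23), and 6 of 8 fell, beside 4.74% of all tested genes. Uqcrfs1, the Rieske iron-sulphur protein (chromosome 13, 30540312 to 30545316, mm10), was at 630, 570 and 607 CPM in controls 1, 2 and 3 and at 483, 507 and 494 CPM in edited 1, 2 and 3. The highest edited library was below the lowest control. Its log2 change was -0.28 (SE 0.05, adjusted p = 0.00513 in edgeR), the smallest p of the 50 genes, and over the settings tried it ran from -0.33 to -0.21. The call of Uqcrfs1 was lost in edgeR without control 3 (adjusted p = 0.0557) and with Myl7 as a covariate (0.188).

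The core proteins Uqcrc1 and Uqcrc2 face the matrix and are related to processing peptidases. Uqcrc1 was at 1200, 1116 and 1174 CPM in controls and 965, 1036 and 950 CPM in edited hearts. Uqcrc2 was at 755, 761 and 758 CPM in controls, a spread of 2.89 CPM (SD), and at 658, 641 and 663 CPM in edited hearts. Neither gene's groups overlapped, with log2 changes of -0.24 (SE 0.05, adjusted p = 0.0109) and -0.21 (SE 0.05, adjusted p = 0.0126) in edgeR. Control 2 stood with the other controls for Uqcrc2, whose change was -0.19 to -0.22 over all settings. The call of Uqcrc2 was lost in edgeR without control 1 (adjusted p = 0.0563) or control 3 (0.0924). It was also lost with the replicate block (0.0578) and with Myl7 as a covariate (0.167). Uqcrc2 shares 26.7% of its exon bases with Pdzd9 on the opposite strand.

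Of the small subunits, Uqcrb (log2 -0.25), Uqcrq (-0.24) and Uqcr10 (-0.20) fell, while Uqcrh, the hinge protein and the Uqcr gene with the highest level per length, was at 440, 368 and 435 CPM in controls and 369, 349 and 370 CPM in edited hearts. Control 2 lay inside the edited range, and Uqcrh did not pass (log2 -0.19, SE 0.07, adjusted p = 0.0910). Uqcr11 had -0.14 (adjusted p = 0.155). Of the subunits with other names, cytochrome c1 (Cyc1) was at 697 ± 50.1 and 628 ± 26.8 CPM (adjusted p = 0.135), and the mitochondrially encoded CYTB at 23090 ± 516 and 20898 ± 1430 CPM (control and edited, SD, n = 3; adjusted p = 0.0800).

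Complex IV reduces oxygen to water. Its catalytic core is mitochondrially encoded, and nuclear subunits surround it. Of 16 tested members, 4 fell (4.74% of all tested genes did), 0 rose and 12 did not pass (median log2 -0.18). Estimates ran from -0.34 to 0.44, the widest range of the groups. The upper end was Cox6b2 alone, with 36 to 69 counts a library, and the next highest was 0.13 (Cox6a1). Among the 7 subunits made in every tissue, Cox6c and Cox7b fell. Cox6c was at 669, 566 and 623 CPM in controls and 492, 483 and 526 CPM in edited hearts (log2 -0.31, SE 0.06, adjusted p = 0.00860). Cox7b was at 586, 545 and 575 CPM against 482, 509 and 466 CPM (log2 -0.23, SE 0.05, adjusted p = 0.0172). In both genes all edited libraries lay below all controls, and control 2 was the lowest control.

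Cox4i1, which carries a regulatory nucleotide-binding site, had the highest level per length in the complex. It was at 1431, 1292 and 1425 CPM in controls and 1098, 1353 and 1106 CPM in edited hearts. Edited 1 and edited 3 were below every control and edited 2 was above control 2, so the groups overlapped (log2 -0.22, SE 0.08, adjusted p = 0.125). Cox5a and Cox6b1 had groups that did not overlap but did not pass (log2 -0.18 and -0.19, adjusted p = 0.0582 and 0.0604), and Cox5b and Cox7c overlapped (-0.15 and -0.15). Cox7a2l, a relative of Cox7a that joins complexes III and IV into supercomplexes, was at 195 ± 2.6 and 184 ± 5.9 CPM (mean ± SD, n = 3; adjusted p = 0.344).

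The muscle isoforms all had negative estimates, and 1 of the 3 fell (4.74% of all tested genes did). Cox7a1 (chromosome 7, 30184171 to 30186030) was at 156, 125 and 144 CPM in controls and 114, 114 and 108 CPM in edited hearts. The groups did not overlap, and its log2 change of -0.34 (SE 0.07, adjusted p = 0.0110) was the most negative of the 50 genes. Over all settings it ran from -0.425 to -0.164. The call of Cox7a1 was lost in edgeR without control 1 (adjusted p = 0.0542), control 3 (0.0865) or edited 3 (0.0604). It was also lost with Myl7 as a covariate (0.38). Cox8b (chromosome 7, 140898942 to 140900446) was at 160, 126 and 152 CPM against 123, 127 and 120 CPM, so that control 2 lay within the edited range (log2 -0.24, SE 0.08, adjusted p = 0.0712). Cox8b passed with DESeq2's test, voom, no filter or control 2 left out, and in none of the other settings.

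Cox6a2 (chromosome 7, 128205435 to 128206366) was the most abundant of the 6 paired genes. It was at 612, 507 and 566 CPM in controls and 491, 538 and 491 CPM in edited hearts, and edited 2 was above control 2 (log2 -0.15, SE 0.07, adjusted p = 0.201). It shares 10.6% of its exon bases with Itgad on the opposite strand. The log2 changes of Cox7a1, Cox8b and Cox6a2 were -0.16, -0.04 and -0.01 with controls 1 and 3 left out.

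Of their ubiquitous partners, 1 of 3 fell (4.74% of all tested genes did). Cox7a2 was at 278, 236 and 269 CPM in controls and 206, 223 and 230 CPM in edited hearts (log2 -0.25, SE 0.07, adjusted p = 0.0321). Cox6a1 (chromosome 5, 115345654 to 115348955) was at 128, 108 and 121 CPM against 126, 143 and 122 CPM, and Cox8a (chromosome 19, 7215158 to 7217616) at 164, 149 and 169 CPM against 165, 174 and 174 CPM. In both the groups overlapped, control 2 was the lowest library, and neither passed (log2 0.13, SE 0.07, adjusted p = 0.299 and log2 0.09, SE 0.06, adjusted p = 0.383). Both estimates were above 0 in all 18 fits, and both genes passed as higher when each library's trend against exon length was removed (adjusted p = 0.0263 and 0.0427; 5.09% of all genes called higher).

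The ratio of the 2 isoforms within a library does not depend on how libraries are scaled. It can still depend on the mix of cell types in the tissue, whose part was not tested. Per base of exon, Cox6a2 was 3.87, 3.81 and 3.78 times Cox6a1 in controls 1, 2 and 3, and 3.14, 3.04 and 3.26 times in edited 1, 2 and 3. The 3 controls were nearly equal, control 2 among them, and every edited heart was lower. The mean log2 ratio was 1.93 ± 0.02 in controls and 1.65 ± 0.05 in edited hearts (mean ± SD, n = 3), a difference of -0.28. As a share, Cox6a2 made up 79.2 ± 0.20% of the pair in controls and 75.9 ± 0.64% in edited hearts.

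Cox8b was 1.47, 1.27 and 1.35 times Cox8a in controls and 1.12, 1.10 and 1.04 times in edited hearts. The groups did not overlap, and control 2 was the control nearest to the edited hearts. The mean log2 ratio was 0.45 ± 0.11 and 0.12 ± 0.06, a difference of -0.33, and the share of Cox8b was 57.7 ± 1.77% and 52.1 ± 1.03% (mean ± SD, n = 3). Cox7a1 was 1.16, 1.09 and 1.10 times Cox7a2 in controls and 1.14, 1.05 and 0.97 times in edited hearts, which overlapped (difference in log2 ratio -0.09).

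In exact two-sided permutation tests over the libraries, these 3 ratios had p = 0.1, p = 0.1 and p = 0.3 in the order Cox6a, Cox8 and Cox7a, and 0.15, 0.15 and 0.3 after Benjamini-Hochberg adjustment over the 3 pairs. With 3 libraries against 3, p = 0.1 is the smallest value an exact permutation test can give, so this design could not pass a threshold of 0.05. Against control 2 alone, a comparison added after the data were seen and without a test, the differences were -0.28 for Cox6a, -0.23 for Cox8 and -0.06 for Cox7a. For Cox6a the difference against all 3 controls was also -0.28. Control 2 is a single library, and the part of tissue makeup in these ratios was not tested.

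**Figure D3:**
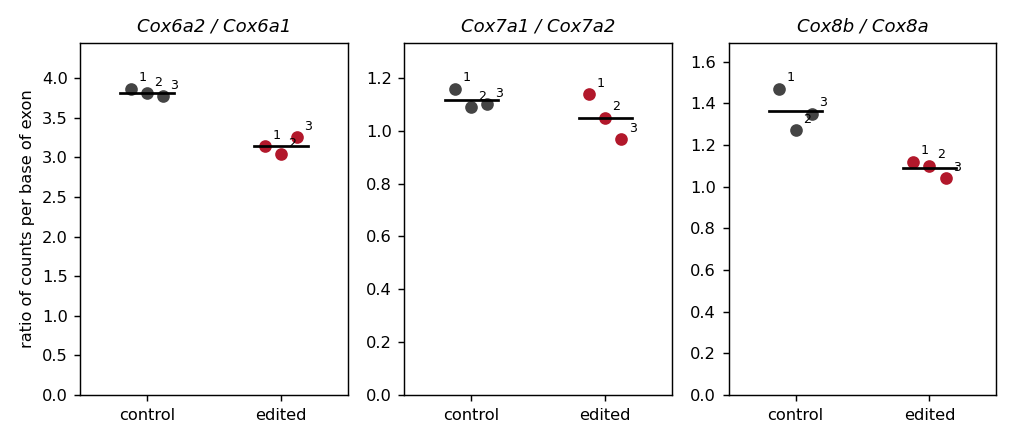
Ratio of counts per base of exon of the muscle isoform to its ubiquitous partner in each library, numbered by replicate; lines are the geometric means of each group and the axes start at 0. The edited hearts lie below all controls for Cox6a2 over Cox6a1 and for Cox8b over Cox8a, and overlap them for Cox7a1 over Cox7a2.

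Isoforms of other tissues were rare. Cox4i2, the hypoxia-responsive lung form, was at 10.1 ± 1.9 CPM in controls and 8.69 ± 1.4 CPM in edited hearts, and made up 0.25% of the Cox4 pair per base of exon in both groups. Cox6b2, the testis form, was at 2.15, 2.21 and 2.66 CPM in controls and 2.94, 3.51 and 3.13 CPM in edited hearts, from 36 to 69 counts a library. Its groups did not overlap, and it was the 1 gene in which all edited hearts were above all controls, but it did not pass (log2 0.44, SE 0.18, adjusted p = 0.154). Per base of exon Cox6b2 made up 0.42 ± 0.06% of the Cox6b pair in controls and 0.64 ± 0.03% in edited hearts (mean ± SD, n = 3). The log2 ratio to Cox6b1 differed by 0.64, without overlap (exact permutation test, p = 0.1, the smallest possible).

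The 9 assembly factors were far less abundant than the subunits, with 1.79 to 109 CPM per kilobase of exon in controls. Of these, 1 fell (4.74% of all tested genes did), 0 rose and 8 did not pass (median log2 -0.11). Cox14, a small factor that binds newly made COX1 and the most abundant of the 9, was at 78.6, 76.0 and 81.2 CPM in controls and 69.3, 70.4 and 64.5 CPM in edited hearts, without overlap (log2 -0.21, SE 0.06, adjusted p = 0.0386). Cox14 did not pass in the fits that left out control 1 (adjusted p = 0.110), control 3 (0.198) or edited 3 (0.160), nor with upper-quartile scaling (0.0700) or the length trend removed (0.119). It also did not pass in edgeR with the replicate block (0.0884) or with Myl7 as a covariate (0.533). With controls 1 and 3 left out its log2 change was -0.16.

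Cox11, which delivers copper to COX1, was at 23.9, 24.2 and 25.3 CPM against 21.9, 21.4 and 22.0 CPM, without overlap and without passing (adjusted p = 0.143). Cox16 had 71 to 105 counts a library and shares 85.1% of its exon bases with the read-through gene Synj2bp-cox16 on the same strand, so its level is uncertain (5.01 ± 0.43 and 3.99 ± 0.24 CPM, adjusted p = 0.178). By library Cox16 was at 4.90, 4.63 and 5.48 CPM in controls and 3.75, 4.24 and 3.96 CPM in edited hearts, without overlap. Cox10 and Cox15, which make haem a, had log2 changes of -0.11 and -0.10 (adjusted p = 0.271 and 0.308), and the copper chaperone Cox17 had -0.12 (0.261). Cox18, Cox19 and Cox20 had 0.07, -0.05 and -0.09 with adjusted p of 0.721 to 0.821; Cox20 shares 29.7% of its exon bases with Hnrnpu on the opposite strand. Unlike the complexes, the assembly factors were not lower in control 2: their median deviation in controls 1, 2 and 3 was 0.04, 0.06 and 0.03, while edited hearts had -0.06, -0.06 and -0.07.

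The ATP synthase couples proton flow to ATP formation. All 15 of its Atp5 genes had negative estimates (median log2 -0.21). Of the 15, 9 fell, beside 4.74% of all tested genes. Groups did not overlap for 12, beside 14.7% of all tested genes that were lower without overlap. The catalytic head, made of the alpha subunit Atp5a1 and the beta subunit Atp5b, is encoded by 2 of the most abundant RNAs of the 50 genes. Atp5b (chromosome 10, 128083307 to 128090388) had the highest level per length of all, 2625 ± 48.5 CPM per kilobase of exon in controls and 2296 ± 45.4 in edited hearts (mean ± SD, n = 3). It was at 4877, 4883 and 5038 CPM in controls and 4347, 4217 and 4377 CPM in edited hearts, with control 2 level with control 1 (log2 -0.19, SE 0.04, adjusted p = 0.0125).

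Atp5a1 was at 4301, 4158 and 4283 CPM in controls and 3706, 3646 and 3626 CPM in edited hearts. Every edited heart was below every control by more than the spread within either group (SD 78.0 and 41.7 CPM), and the log2 change was -0.21 (SE 0.04, adjusted p = 0.00677 in edgeR). Across all settings it was -0.23 to -0.19, and for Atp5b -0.21 to -0.17. The calls of both were lost in the fit without control 3 (adjusted p = 0.0891 and 0.132) and once Myl7 was a covariate (0.257 and 0.324). The call of Atp5b was also lost in edgeR without control 1 (adjusted p = 0.0505) and with the replicate block (0.0563). Against control 2 alone the estimates for Atp5a1 and Atp5b were -0.19 and -0.18.

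The central stalk carries the rotation of the ring to the head. Its gamma subunit Atp5c1 was at 993, 964 and 990 CPM in controls and 859, 764 and 860 CPM in edited hearts, with edited 2 the lowest (log2 -0.25, SE 0.06, adjusted p = 0.0133). The delta and epsilon subunits Atp5d and Atp5e had groups that did not overlap but did not pass (log2 -0.19 and -0.26, adjusted p = 0.0645 and 0.0573). In the peripheral stalk, which holds the head still, Atp5f1, Atp5h and Atp5j fell (log2 -0.21 in each), while Atp5o had -0.12 (adjusted p = 0.179). Atp5j shares 24.5% of its exon bases with Gabpa on the opposite strand.

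The c-ring turns as protons pass. Its single protein is made from 3 genes, Atp5g1, Atp5g2 and Atp5g3, which differ in the import sequence that is cut off. Atp5g3 was at 1505, 1302 and 1411 CPM in controls and 1179, 1234 and 1203 CPM in edited hearts (adjusted p = 0.0236), and Atp5g1 at 896, 796 and 876 against 715, 756 and 737 CPM (adjusted p = 0.0239). Atp5g2 was at 167, 152 and 165 CPM against 149, 149 and 161 CPM, with overlap (log2 -0.08, SE 0.06, adjusted p = 0.459). Per base of exon, Atp5g3, Atp5g1 and Atp5g2 made up 61.1 ± 0.55%, 31.1 ± 0.40% and 7.85 ± 0.17% of the 3 in controls and 60.6 ± 0.29%, 30.8 ± 0.18% and 8.61 ± 0.40% in edited hearts (mean ± SD, n = 3).

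Of the small membrane subunits, Atp5k, the e subunit that helps pair ATP synthases into dimers, fell from 133, 105 and 117 CPM to 95.9, 91.7 and 97.4 CPM (log2 -0.32, SE 0.08, adjusted p = 0.0223). Atp5j2 and Atp5l did not pass (log2 -0.19 and -0.15). Atp5s and Atp5sl had -0.12 and -0.10 (adjusted p = 0.452 and 0.347).

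**Figure D4:**
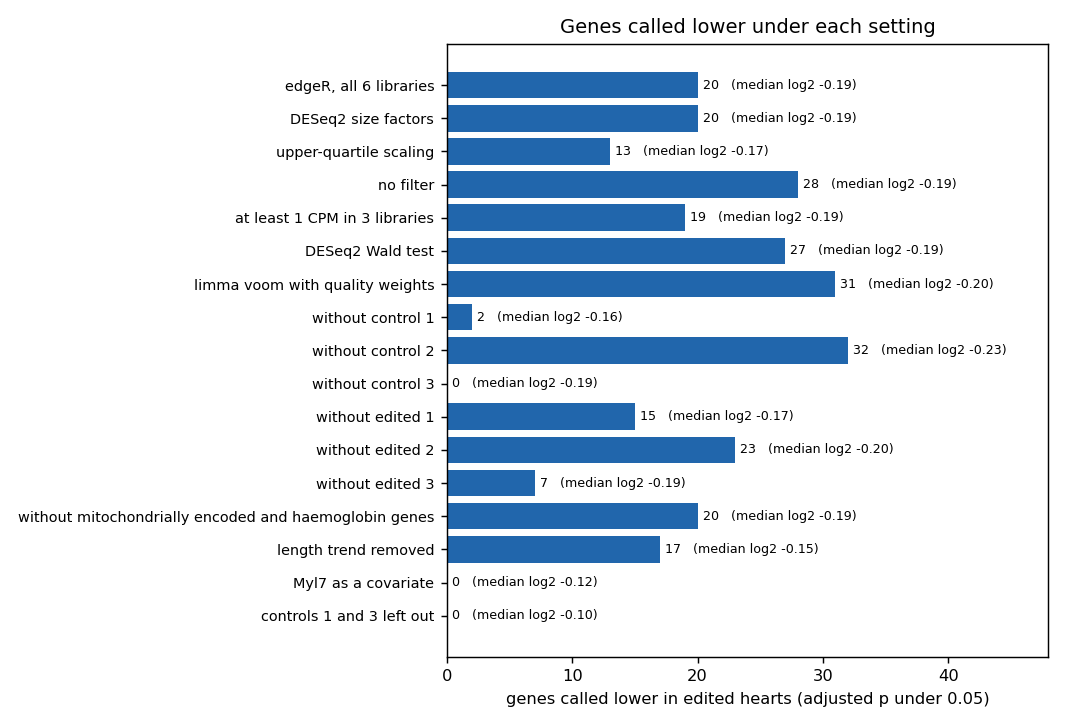
Number of genes among the tested members called lower in edited hearts at an adjusted p of 0.05 (bars, axis from 0) under each scaling, filter, test, covariate and set of libraries, with the median log2 change of the tested members beside each bar. The count runs from 0 to 32, and the median stays between -0.23 and -0.10.

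Other genes of the pathway are given from lists of their own. Beside them, 4.74% of all tested genes fell and 4.93% rose. Of 36 complex I subunits, 13 fell and 0 rose (median log2 -0.18; 0 of 36 estimates above 0), and of 4 complex II subunits 3 fell (median -0.20). Among 10 electron carriers and partners under other names, 7 fell. They included Ndufa4, now counted to complex IV (544 ± 24.0 to 464 ± 11.8 CPM, adjusted p = 0.0151), and 2 small ATP synthase subunits, Usmg5 (204 ± 11.3 to 160 ± 4.6 CPM, adjusted p = 0.00202) and 2010107E04Rik (187 ± 16.2 to 160 ± 9.1 CPM, adjusted p = 0.0449; SD, n = 3). Atpif1, the inhibitor of the ATP synthase run in reverse, was at 141 ± 12.4 and 139 ± 9.3 CPM (log2 -0.02, SE 0.07).

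Of 21 tested assembly factors with other names, 2 fell, beside 4.74% of all tested genes. They were Higd1a, which binds complex IV (log2 -0.35, SE 0.05), and Tmem70, which is needed to build the ATP synthase (-0.25, SE 0.06). Of 15 regulators of mitochondrial biogenesis, 4 fell and Esrrb rose (4.74% and 4.93% of all tested genes did). Ppargc1a, a coactivator of respiratory genes, was at 192, 164 and 201 CPM in controls and 109, 102 and 106 CPM in edited hearts, without overlap (log2 -0.81, SE 0.07, adjusted p = 5.34e-05). The nuclear receptor Esrra was at 154 ± 7.9 and 131 ± 4.4 CPM (mean ± SD, n = 3; log2 -0.23, SE 0.06, adjusted p = 0.0182).

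Of the 13 mitochondrially encoded subunits, 6 fell (4.74% of all tested genes did) and 0 rose, and 13 of 13 estimates were below 0. COX1, the catalytic subunit of complex IV, was at 59827 ± 4274 and 55180 ± 3630 CPM and did not pass (log2 -0.12, SE 0.06, adjusted p = 0.255). COX2, which takes electrons from cytochrome c, was at 770, 597 and 645 CPM in controls and 313, 257 and 232 CPM in edited hearts (log2 -1.33, SE 0.15, adjusted p = 0.00538). COX3, the other core subunit, was at 698, 537 and 577 CPM against 261, 208 and 184 CPM (log2 -1.47, SE 0.17, adjusted p = 0.00920). Both lay far below COX1 in every library, and in both every edited heart was below every control.

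ATP6, through which protons pass to the c-ring, was at 679, 517 and 570 CPM against 245, 177 and 165 CPM (log2 -1.59, SE 0.20, adjusted p = 0.0159). ATP8, beside it in the ATP synthase, was at 34.7, 35.7 and 37.0 CPM against 32.3, 24.4 and 23.6 CPM (log2 -0.41, SE 0.11, adjusted p = 0.0370). COX2, COX3 and ATP6 thus had larger estimates than any of the 50 nuclear genes. So did 3 mitochondrially encoded genes of complex I in edgeR. These were ND4L (log2 -1.35, adjusted p = 0.0521), ND3 (-0.98, 0.0660) and ND6 (-0.68, 0.00099). Estimates for ND1, ND2, ND4, ND5 and CYTB ran from -0.25 to -0.07. Over the 17 settings that kept these genes, COX2 ran from -1.46 to -1.16, COX3 from -1.62 to -1.31 and ATP6 from -1.79 to -1.41. Without edited 2 these did not pass (adjusted p = 0.0522, 0.0589 and 0.0669), and ATP6 did not pass without control 3 (0.0694). With Myl7 as a covariate COX2, COX3 and ATP6 did not pass in edgeR (adjusted p = 0.128, 0.16 and 0.208). With controls 1 and 3 left out their estimates were -1.16, -1.31 and -1.41. ATP8 did not pass when any library other than edited 1 was left out (adjusted p from 0.0958 without control 2 to 0.168 without control 3). Nor did ATP8 pass in edgeR with the length trend removed (0.236) or with Myl7 as a covariate (0.366). Parts of the mitochondrial genome have near-identical copies in the nuclear genome, so the counts of these genes are uncertain.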

How the data were processed

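RNA of 6 mouse heart libraries was analysed, 3 edited and 3 control. The authors deposited raw read counts per gene, not normalized, with the exon length of each gene. The tools named in the submitters' processing notes are FastQC, cutadapt, STAR and featureCounts, and the build is mm10, with versions, settings and the handling of strand and of multiply matching reads not given in the sources used here. Respiratory genes have processed pseudogenes, so reads shared with such copies may be missing or misplaced. Each library has 2 columns, between which 0 genes differed, and the first was used. Replicates of a group differed by more than sampling noise (chi-square per degree of freedom 3.95 to 14.41).

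Genes were filtered with filterByExpr, scaled by TMM (factors 0.971 to 1.039) and compared with edgeR's quasi-likelihood test (4.0.16, robust fit; R 4.3.3) in a model of group alone, with Benjamini-Hochberg adjustment over 14879 genes; a gene was called, or said to rise or fall, at an adjusted p under 0.05. SE is the log2 change over the square root of its F. Levels between genes are per kilobase of exon. Isoform ratios used exact permutation tests (SciPy 1.17.1). Alternatives were other scalings and filters, DESeq2 1.42.0, limma voom (limma 3.58.1), a replicate block, leaving out libraries, a trend on exon length, and Myl7 as a covariate. The steps were tested on simulated data with changes of 1.5-fold or more and no differences in tissue makeup between libraries. Estimates of the 50 genes were all smaller than that, so the simulation does not cover changes of their size. Members, lists and alternatives were chosen with earlier results of these data known. Values by library are given for the 3 genes of smallest p and the most abundant gene of each complex and of the assembly factors, and for the 6 paired isoforms. They are also given for some further genes (Cox6b2, Atp5k, the c-ring genes, Ppargc1a, COX2, COX3, ATP6 and ATP8) chosen after their values were seen.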

Additional observations from a re-analysis of the deposited data

How the results depend on the processing

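The direction of the change held in nearly every fit, and the calls did not. Of the 50 genes, 5 estimates changed sign in some setting, none of them called: Cox20 to 0.040 without control 2 and 0.002 without edited 1, Atp5s to 0.042, Cox7c to 0.013 and Atp5g2 to 0.004 with controls 1 and 3 left out, and Cox19 to 0.016 with the length trend removed. The number of genes called lower was 20, and 13 with upper-quartile scaling, 31 with voom, 3 at an adjusted p of 0.01, and 0 with Myl7 as a covariate, with controls 1 and 3 left out or for changes above 1.5-fold. With controls 1 and 3 left out, the lone control is assumed to vary like the edited libraries, and few genes could pass. Myl7 was higher in every edited library than in every control, so that as a covariate it overlaps with group. How much of the loss of calls came from this was not tested. Leaving out 1 library gave 0 to 32.

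With Myl7 as a covariate, with controls 1 and 3 left out and for changes above 1.5-fold, complex III, complex IV, the assembly factors and the ATP synthase had 0 calls each. At an adjusted p of 0.01 they had 1, 1, 0 and 1, against 6, 4, 1 and 9. Complex IV had 8 with no filter, 8 with DESeq2's test and 9 with voom, and the ATP synthase 14 with voom. The assembly factors had 0 with upper-quartile scaling and 0 with the length trend removed, a setting in which 2 genes, Cox8a and Cox6a1, were called higher. Leaving out 1 library gave 0 to 8 for complex III, 0 to 10 for complex IV, 0 to 1 for the assembly factors, 0 to 13 for the ATP synthase, and 0 to 0 called higher. The median log2 change was -0.12 with Myl7 as a covariate and -0.10 with controls 1 and 3 left out. It was -0.15 with the length trend removed and -0.23 to -0.16 without 1 library. The cause of these shifts was not tested.

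Over all genes, 1438 were called (705 lower and 733 higher, and 531 and 849 with upper-quartile scaling), and 2239 with no filter, 2285 with voom, 128 with Myl7 as a covariate, 82 with controls 1 and 3 left out, 503 at an adjusted p of 0.01, 43 above 1.5-fold, and 386 to 1661 without 1 library. The ratios of the 3 isoform pairs kept their direction in every setting, from -0.30 to -0.25 (Cox6a), -0.15 to -0.03 (Cox7a) and -0.38 to -0.27 (Cox8) without 1 library. Replicate numbers showed no sign of pairing: deviations of same-numbered libraries correlated across genes at 0.02, -0.10 and -0.08. Those of libraries with different numbers correlated at -0.06 to 0.11. The labels do not state whether samples were paired, and so few libraries cannot settle it. With the replicate block, 8 genes were called lower (3.07% of all genes; 3 of complex III, 2 of complex IV, 0 assembly factors, 3 of the ATP synthase). Levels under about 5 CPM, as for Cox20, Cox16 and Cox6b2, rest on 36 to 105 counts a library.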
